A study of Mus musculus with 6 samples.

Results

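The 10 genes described here code for the ligand, receptors and SMADs of the TGF-β pathway in Th9 cultures: Tgfb1, Tgfbr1, Tgfbr2, Tgfbr3, Eng, Smad2, Smad3, Smad4, Smad7 and Skil. They were taken by name from a list. All 10 were found in the deposited gene-level table and all 10 passed the expression filter, out of 12925 genes tested and 22400 with a count. Naive CD4+ T cells from 8 to 10 week old mice were activated for 48 h with 2 µg/ml plate-bound anti-CD3 and 1 µg/ml anti-CD28, and the medium held anti-IFN-γ at 10 µg/ml, TGF-β at 2.5 ng/ml and IL-4 at 20 ng/ml. The mice were Cul5 fl/fl without Cre (WT, 3 samples) or Cul5 fl/fl with CD4-Cre (Cul5 cKO, 3 samples), so that both groups carried the floxed allele and both received the same cytokines. Cul5 codes for Cullin 5, the scaffold of a ubiquitin ligase complex. CD4-Cre is active in all T cells from the thymus on. Nothing in the labels says whether the samples of a genotype came from separate animals or cultures, and p-values measure only the spread between these samples.

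TGF-β is made as a latent dimer and, once released, brings together a type II and a type I receptor serine kinase. The type I receptor then phosphorylates SMAD2 and SMAD3, which join SMAD4 and enter the nucleus. In CD4+ T cells TGF-β with IL-4 directs the Th9 fate, and the comparison asks how the genes of this pathway stood in cells without Cul5.

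The libraries of 5 samples held between 23111689 and 23454552 counts, and WT replicate 3 held 3944803, so its low values are the least precise. The targeted gene was at 64.4, 69.3 and 65.0 CPM, counts scaled to a fixed library total, in WT and at 10.6, 14.2 and 13.1 CPM in Cul5 cKO, which is -2.39 ± 0.115 (SE) as a log2 fold change (edgeR, adjusted p = 0.000992). Cd4 was between 440.1 and 469.5 CPM in the 6 samples. The sum of 8 CD4 T cell markers was 1786 to 1848 CPM in WT and 1666 to 1707 CPM in Cul5 cKO, where Cd28 fell (log2 fold change -1.17, adjusted p = 0.0205, edgeR). The deviations of the 2 samples numbered replicate 1 from their group means correlated at 0.37 across genes. Values from replicates 2 and 3 alone are given below for Eng and where they change a call. In that fit 1153 of 13055 genes tested passed an adjusted p under 0.05, against 133 of 12925 with all 6 samples, so a pass was more common there. In bulk RNA, fewer cells that express a gene and less RNA per cell cannot be told apart.

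Of the 10 genes, 1 passed an adjusted p under 0.05 (edgeR, Benjamini-Hochberg over all genes tested), against 1.03% of all genes tested. Eng rose, and no gene of the list fell. Those with an unadjusted p under 0.05 were 4, Eng and Smad3 with higher means and Tgfbr1 and Tgfbr3 with lower means in Cul5 cKO, against 21.3% of all genes tested. The groups did not overlap for 2 genes, Eng and Tgfbr1, against 27.5% of all genes tested, so that the share of the list was near that of all genes. The median log2 fold change was -0.09 over the 10 genes and -0.01 over all genes tested.

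**Figure D1:**
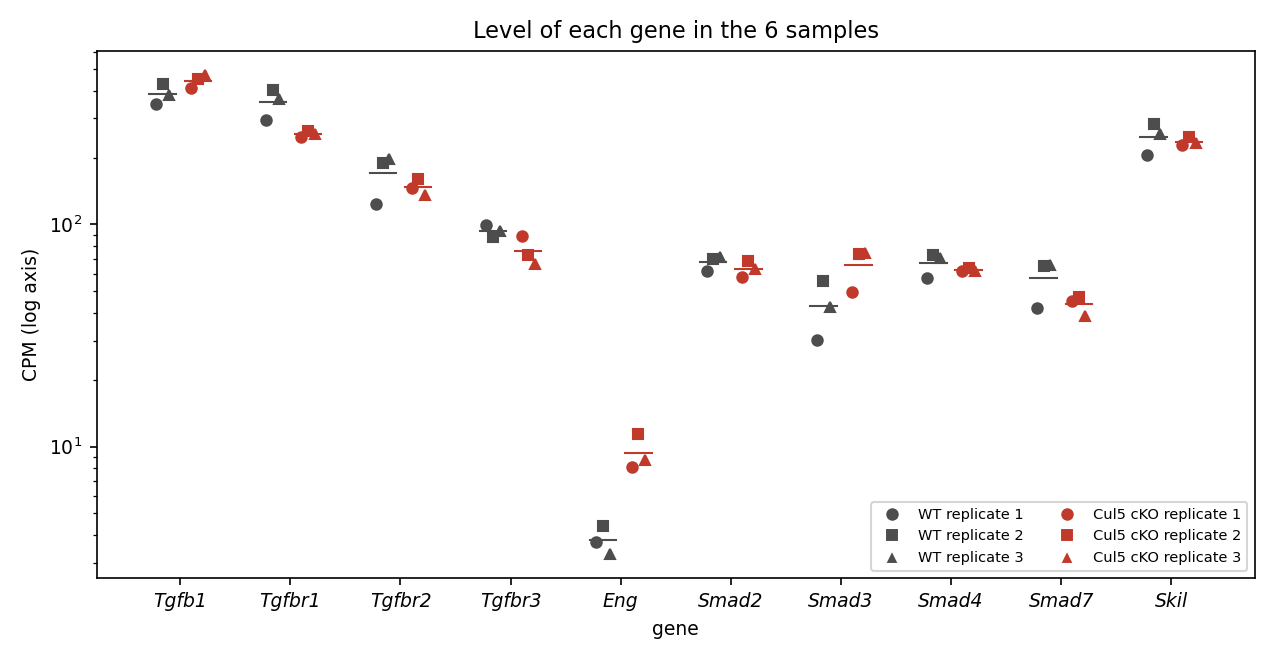
Level of each gene in CPM, on a log axis, in the 3 WT and 3 Cul5 cKO samples, with a short line at each group mean. The groups are apart for Eng, which is higher in Cul5 cKO, and for Tgfbr1, which is lower, and overlap for the other 8 genes.

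Of these genes, Eng had the largest difference between genotypes in the share of its leading transcript. The sequences that separate 2 of its transcripts, Eng-201 and Eng-202, are therefore shown first. Both are on the plus strand of chromosome 2 in GRCm38, from the GENCODE transcripts. The lower case letters are the 30 bases of exon 14 that both share (chr2:32681268-32681297), and the capitals are the next 30 bases, in which Eng-201 goes on into exon 15 (chr2:32681437-32681466) and Eng-202 reads on into the intron of 139 bases (chr2:32681298-32681327).
Eng-201: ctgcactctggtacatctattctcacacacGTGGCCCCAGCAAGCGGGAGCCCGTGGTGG
Eng-202: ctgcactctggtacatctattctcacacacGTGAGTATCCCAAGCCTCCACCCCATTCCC
Eng-201 codes for endoglin with the long cytoplasmic tail. Eng-202 keeps the intron, has 1923 coding bases against 1959, and codes for a form with a shorter tail.

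Tgfb1 (chr7:25687002-25705077) codes for TGF-β1, the main TGF-β of T cells. Its level was 349.6, 428 and 382 CPM in WT replicates 1, 2 and 3 and 411, 450.3 and 472 CPM in Cul5 cKO. The groups overlapped in 1 pair of values, with WT replicate 2 above Cul5 cKO replicate 1. The log2 fold change of 0.20 ± 0.0902 (SE) had a 95% interval of -0.01 to 0.41 and did not pass (adjusted p = 0.253, edgeR). Per length, Tgfb1 was the most abundant of the 10 genes in every sample, at 275 ± 35.6 TPM, a level scaled to transcript length, in WT and 313 ± 18.3 TPM in Cul5 cKO (SD, n = 3). The culture medium supplied TGF-β as protein, which these RNA values do not measure.

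Tgfbr1 (chr4:47353222-47414931) codes for the type I receptor, the kinase that phosphorylates SMAD2 and SMAD3. It was at 297, 402 and 368 CPM in WT and at 248, 264 and 255 CPM in Cul5 cKO. The Cul5 cKO samples lay close together, each below every WT sample. Its log2 fold change of -0.48 ± 0.109 (SE) had a 95% interval of -0.73 to -0.22 and an unadjusted p of 0.0029, but did not pass over all genes (adjusted p = 0.0914, edgeR). From replicates 2 and 3 alone, where 1153 of 13055 genes passed, it was -0.57 and passed (adjusted p = 0.0147, edgeR). It passed in 6 of the 20 alternatives, with adjusted p from 0.00347 to 0.290.

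Tgfbr2 (chr9:116084293-116175360) codes for the type II receptor, which binds TGF-β and activates the type I receptor. Its levels were 123.1, 190.0 and 196 CPM in WT and 146, 160.2 and 136 CPM in Cul5 cKO. WT replicate 1 was the lowest of all 6 samples, so the groups overlapped. The log2 fold change was -0.20 with a 95% interval of -0.60 to 0.21 (adjusted p = 0.548, edgeR), which leaves room for a decrease as large as that of Tgfbr1.

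The reads of Tgfbr2 divided almost evenly between 2 transcripts in every sample, which are not of equal length. Tgfbr2-202 has 1776 coding bases and Tgfbr2-201 has 1701. The difference is a 75-base exon, shown in capitals with 15 bases of the neighbouring exons on each side (chr9:116158271-116158345, minus strand, GRCm38), which adds to the extracellular part of the receptor.
Tgfbr2-202: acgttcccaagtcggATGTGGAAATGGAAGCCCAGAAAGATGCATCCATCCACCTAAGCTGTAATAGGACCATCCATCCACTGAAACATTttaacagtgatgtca
The transcript with this exon held 54.1%, 51.2% and 48.8% of the gene's counts in WT and 48.6%, 52.1% and 54.7% in Cul5 cKO. The ranges of the genotypes nearly coincided, and the means were 51.4% ± 2.65 and 51.8% ± 3.02 (SD, n = 3; two-sided exact permutation p = 0.8, where 3 samples against 3 cannot go below 0.1). The 2 transcripts also differ in the length of the last exon, 6265 against 1629 bases. As a share of the gene's TPM, scaled to length, the transcript with the 75-base exon held 28.2% to 33.3% over the 6 samples, so that it was the less abundant of the 2 on that scale.

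Tgfbr3 (chr5:107106570-107289629) codes for betaglycan, a coreceptor that presents TGF-β to the type II receptor. It was at 99.96, 87.9 and 93.6 CPM in WT and at 88.3, 72.9 and 66.5 CPM in Cul5 cKO. Only the highest Cul5 cKO sample, replicate 1, reached into the WT range. The log2 fold change was -0.31 ± 0.113 (SE; unadjusted p = 0.0293, adjusted p = 0.188, edgeR). In replicates 2 and 3 alone it was -0.37 and passed (adjusted p = 0.0380, edgeR; 0.0301 to 0.759 over 20 alternatives). An overlapping gene, Gm43422, shares 4.13% of the 31-base words of Tgfbr3. No transcript of Gm43422 was among those counted, so kallisto did not divide reads between the genes. Any reads of Gm43422 from the shared stretch could be counted to Tgfbr3.

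Eng (chr2:32646595-32682669) codes for endoglin, a coreceptor best known from endothelial cells, where it modulates the response to TGF-β and BMPs. Its level was 3.71, 4.37 and 3.29 CPM in WT and 8.08, 11.4 and 8.67 CPM in Cul5 cKO, resting on 87, 101 and 13 counts and on 186, 260 and 195 counts. Every Cul5 cKO sample lay above every WT sample. Mean CPM was 2.47 times as high in Cul5 cKO, and Eng rose with a log2 fold change of 1.27 ± 0.200 (SE), a 95% interval of 0.81 to 1.74 and an adjusted p of 0.0389 (edgeR). It was the least abundant of the 10 genes, at 1.67 ± 0.264 TPM in WT and 5.46 ± 2.34 TPM in Cul5 cKO (SD, n = 3). From replicates 2 and 3 alone it was 1.32 (adjusted p = 0.0319, edgeR). It passed in 10 of 20 alternatives, with adjusted p from 0.000203 to 0.822.

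The call of Eng was lost when any of 5 of the 6 samples was left out, with adjusted p from 0.0576 to 0.164 (edgeR) and log2 fold changes from 1.12 to 1.40, and it was kept without Cul5 cKO replicate 1. With the 5 deep libraries reduced at random to the depth of WT replicate 3, its log2 fold change was 0.81 (adjusted p = 0.822, edgeR). Markers of other cells varied between the libraries. Cul5 cKO replicate 2, the sample highest in Eng, held 17.8 CPM summed over 5 platelet and megakaryocyte genes, against 0.999 to 2.03 CPM in the other 5 samples, and 21.6 CPM over 8 myeloid genes, against 5.52 to 11.03 CPM. The sum of 8 B cell genes was 62.7 CPM in Cul5 cKO replicate 3 and 15.5 to 25.8 CPM in the other samples. The sums of the CD8 T cell and NK cell lists overlapped between the genotypes. Their part in the level of Eng was not tested. In Cul5 cKO replicates 1 and 3 Eng was at 8.08 and 8.67 CPM, above the highest WT sample at 4.37 CPM, and without Cul5 cKO replicate 2 its log2 fold change was 1.12 (adjusted p = 0.112, edgeR). The endothelial markers Cdh5, Kdr and Tek were at or below 0.219 CPM in every sample, with 13 of the 18 values at 0. Over the whole list of 8 endothelial and stromal genes the sum was 20.4 to 31.6 CPM in WT and 15.2 to 26.5 CPM in Cul5 cKO, most of it Pecam1, which T cells also express. The 6 erythroid genes summed to 0 to 0.897 CPM in WT and 1.07 to 2.67 CPM in Cul5 cKO, without overlap, and their part in the level of Eng was not tested either.

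Within Eng, the transcript makeup differed between the genotypes on some measures and overlapped on others. Eng-202, the form with the shorter tail, was at 1.51, 0 and 0 CPM in WT and at 4.17, 6.56 and 3.49 CPM in Cul5 cKO, or 35.4, 0 and 0 against 96, 149.6 and 78.6 estimated counts. All Cul5 cKO samples were above all WT samples for this transcript. The long-tail transcripts Eng-201 and Eng-205 together were at 2.20, 4.37 and 3.24 CPM in WT and 3.91, 4.30 and 5.13 CPM in Cul5 cKO, and overlapped. Eng-201 alone held 59.3%, 99.98% and 98.3% of the gene's counts in WT and 35.0%, 20.1% and 21.8% in Cul5 cKO. Besides that of Smad2, this was the only leading transcript of the list whose count shares did not overlap (two-sided exact permutation p = 0.1, the smallest that 3 samples against 3 allow). The leading transcripts of genes outside the list were not compared. With Eng-205, which was at 0 in WT, the long-tail share was 48.4%, 37.7% and 59.16% in Cul5 cKO. The highest of these was just below WT replicate 1, at 59.33%. As a share of the gene's counts Eng-202 overlapped between genotypes, since WT replicate 1 was at 40.7% and Cul5 cKO replicate 3 at 40.3%. These divisions are kallisto estimates from at most 260 counts a sample, and a count of 0 in WT replicate 3 allows up to 0.759 CPM at a floor of 3 counts, for counting error only. A retained intron is also present in RNA that has not been fully spliced, and the reads do not tell the 2 apart.

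The last exon of Eng overlaps Fpgs, a gene on the other strand, by 61 bases, and strand was not given in the sources used here, so reads there could be counted to either. Fpgs was at 39.8, 50.9 and 56.7 CPM in WT and 54.1, 57.3 and 72.8 CPM in Cul5 cKO, a log2 fold change of 0.34 (adjusted p = 0.269, edgeR). The 31-base words shared with Fpgs made up 0.751% of those of Eng.

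**Figure D2:**
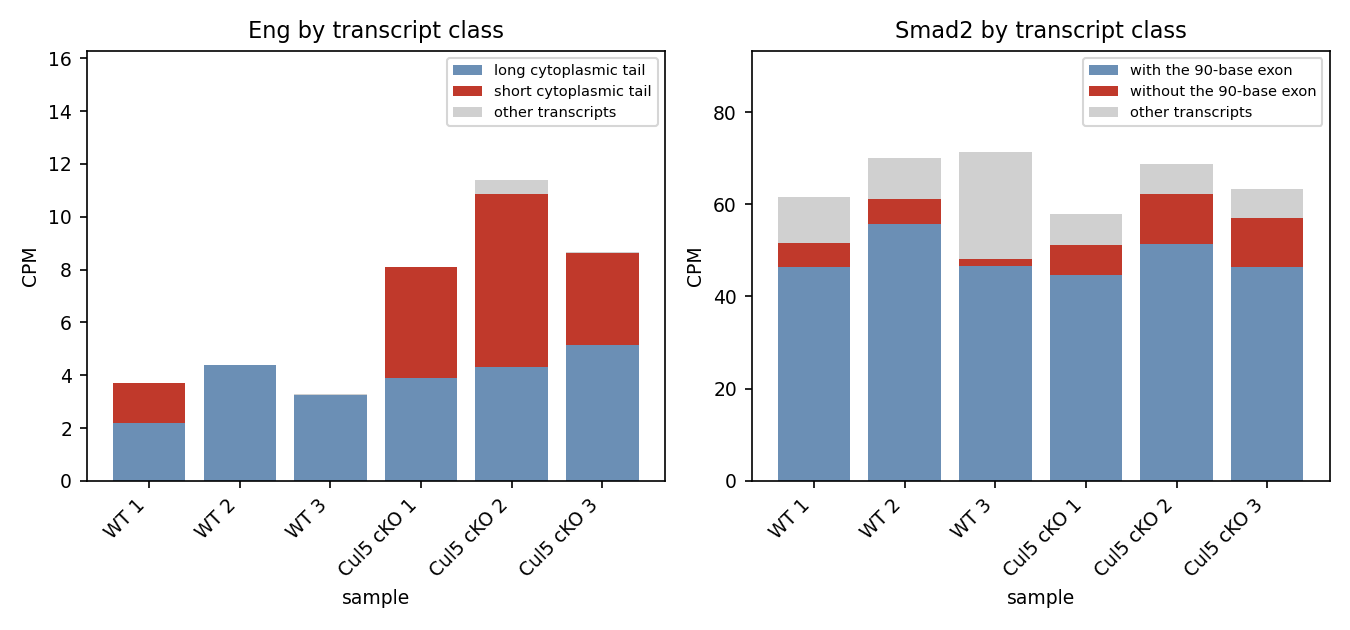
CPM of Eng (left) and Smad2 (right) in each sample, stacked by transcript class, as kallisto divided the reads. The short-tail form of Eng takes 3.49 to 6.56 CPM in Cul5 cKO and at most 1.51 CPM in WT, while the long-tail forms overlap. The Smad2 form without the 90-base exon takes 1.57 to 5.36 CPM in WT and 6.56 to 10.9 CPM in Cul5 cKO.

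The promoter window of Eng, from 250 bases before its start to 50 after, is printed as that of the gene that passed (RefSeq, GRCm38.p6, chr2:32646345-32646644, plus strand), with each GTCT or its reverse complement AGAC, the core letters of SMAD binding elements, in capitals.
Eng promoter: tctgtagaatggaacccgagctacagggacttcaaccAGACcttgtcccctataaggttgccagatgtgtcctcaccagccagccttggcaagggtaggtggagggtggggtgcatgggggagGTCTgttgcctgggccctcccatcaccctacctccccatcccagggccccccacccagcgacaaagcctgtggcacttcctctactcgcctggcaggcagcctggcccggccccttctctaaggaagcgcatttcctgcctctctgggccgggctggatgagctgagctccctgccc
The window holds 2 matches, beginning 213 and 127 bases before the start. Windows were at hand for 5 of the 10 genes, and GTCT or AGAC had 1 match each in those of Tgfb1, Smad3 and Tgfbr2. Tgfbr1 has 2 starts, with 0 matches at 1 and 2 at the other. The longer letters CAGACA or TGTCTG, which contain the shorter ones, were found in the second Tgfbr1 window alone, and the palindrome GTCTAGAC in none of these windows. Of all 32851 promoter windows, 87.98% held GTCT or AGAC, 21.04% held CAGACA or TGTCTG and 0.21% held GTCTAGAC, and a match is a description of the letters only.

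Smad2 (chr18:76241580-76310963) codes for one of the SMADs that the type I receptor phosphorylates. Its level was 61.6, 70.0 and 71.4 CPM in WT and 57.9, 68.7 and 63.4 CPM in Cul5 cKO. The groups overlapped, and the log2 fold change of -0.09 had a 95% interval of -0.30 to 0.12 (adjusted p = 0.607, edgeR). Smad2-202 leaves out a 90-base exon, exon 3 of the gene, and codes for a form of SMAD2 known to bind DNA directly, as SMAD3 does. It was at 5.10, 5.36 and 1.57 CPM in WT and 6.56, 10.9 and 10.6 CPM in Cul5 cKO. The groups did not overlap, and neither did the shares of the gene's counts, 8.28%, 7.65% and 2.21% in WT and 11.3%, 15.9% and 16.8% in Cul5 cKO. Smad2-201, the leading transcript, held 41.7%, 42.8% and 28.5% in WT and 45.4%, 43.9% and 44.8% in Cul5 cKO. Together with Smad2-205, which also has the exon, it held 75.5%, 79.6% and 65.2% in WT and 77.1%, 74.7% and 73.1% in Cul5 cKO, which overlapped. Counts outside these and Smad2-202 lay on transcripts not classed by the exon, with the largest share in WT replicate 3. The value of Smad2-202 in WT replicate 3 rests on 6.2 estimated counts, and the difference between WT replicate 2 and Cul5 cKO replicate 1 is small beside the spread within Cul5 cKO.

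Smad3 (chr9:63646767-63757994) codes for the other SMAD that the receptor phosphorylates, which takes part in induction of Il9 and Foxp3 in T cells. It was at 30.2, 55.9 and 42.5 CPM in WT and at 49.6, 73.6 and 74.6 CPM in Cul5 cKO. The lowest Cul5 cKO sample, replicate 1, was below WT replicate 2, and the other 2 were the highest of all 6. This gave 0.62 ± 0.245 (SE) as a log2 fold change, with a 95% interval of 0.05 to 1.19, which did not pass over all genes (unadjusted p = 0.0374, adjusted p = 0.209, edgeR). In replicates 2 and 3 alone it was 0.55 and passed (adjusted p = 0.0436, edgeR), and it passed in 3 of 20 alternatives, with adjusted p from 0.0115 to 0.4898. Per length Smad3 was at 14.8 ± 4.71 TPM in WT and 23.7 ± 6.15 TPM in Cul5 cKO (SD, n = 3), below Smad2 at 53.9 ± 11.6 and 42.3 ± 3.55 TPM.

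Smad4 (chr18:73639009-73703780) codes for the SMAD that joins both SMAD2 and SMAD3. Its level was 57.4, 72.5 and 70.9 CPM in WT and 61.6, 63.7 and 61.7 CPM in Cul5 cKO, all within the WT range. Its log2 fold change was -0.10 with a 95% interval of -0.32 to 0.13 (adjusted p = 0.605, edgeR).

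Smad7 (chr18:75367529-75395935) codes for the inhibitory SMAD, which TGF-β induces and which brings ubiquitin ligases to the type I receptor. It was at 42.2, 65.2 and 65.5 CPM in WT and at 45.4, 47.2 and 38.7 CPM in Cul5 cKO. WT replicate 1 lay within the Cul5 cKO range, and the other WT samples lay above it. Their log2 fold change was -0.38 ± 0.175 (SE), with a 95% interval of -0.79 to 0.03 (adjusted p = 0.262, edgeR). In replicates 2 and 3 alone it was -0.60 and passed (adjusted p = 0.0316, edgeR), and without WT replicate 1 it was -0.58 and passed as well (adjusted p = 0.0478, edgeR; 0.0316 to 0.769 over 20 alternatives). These 2 were the only ones of the 20 alternatives in which Smad7 passed, and WT replicate 1 is left out of each. In the fit without WT replicate 1, 316 of 13213 genes tested passed, against 133 of 12925 with all 6 samples. A pass was thus more common there.

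Skil (chr3:31095058-31122577) codes for SnoN, a corepressor that binds SMAD complexes and is degraded when TGF-β signals. Its level was 206, 282 and 255 CPM in WT and 227, 248 and 232 CPM in Cul5 cKO, within the WT range. Its log2 fold change was -0.07 with a 95% interval of -0.34 to 0.20 (adjusted p = 0.761, edgeR). Skil-204, which leaves out 138 coding bases, held 79.2% ± 5.90 of the gene's counts in WT and 77.9% ± 3.58 in Cul5 cKO (SD, n = 3; two-sided exact permutation p = 0.9). As a share of the gene's TPM, which scales each transcript to its length, it held 64.8%, 63.99% and 60.7% in WT and 69.9%, 67.4% and 66.9% in Cul5 cKO, without overlap, so that the direction of the difference turned with the scale.

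**Figure D3:**
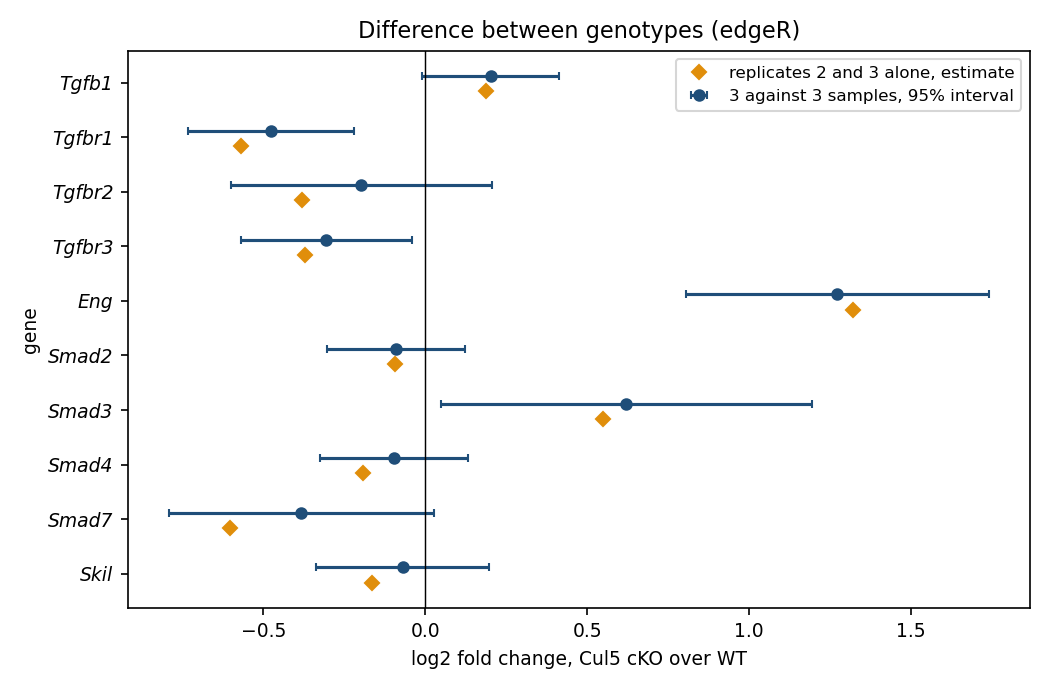
Log2 fold change of Cul5 cKO over WT for each gene, with the 95% interval of the edgeR fit of 3 against 3 samples (circles) and the estimate from replicates 2 and 3 alone (diamonds). The interval leaves out 0 for Tgfbr1, Tgfbr3, Eng and Smad3, and the diamonds lie on the same side of 0 as the circles for all 10 genes.

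In the other genes 1 transcript held most of the counts. Tgfb1-201 held 98.6% to 98.98% of the gene's counts over the 6 samples, Tgfbr1-201 held 94.4% to 95.6% and Tgfbr3-201 held 97.0% to 100%. Smad3-201, Smad4-201 and Smad7-201 held 94.6% to 99.5%, 76.3% to 94.8% and 86.0% to 98.3%. The count shares of these 6 transcripts overlapped between the genotypes. As a share of TPM, Tgfbr1-201 held 84.4%, 83.1% and 82.5% in WT and 85.4%, 84.8% and 87.98% in Cul5 cKO, without overlap, and the other 5 overlapped. For Smad3-201 the difference of Cul5 cKO from WT turned from 0.46 to -2.30 percentage points on that scale, and for Smad7-201 it went from 4.95 to 10.5.

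The order of the levels per length was read in TPM. In WT it ran from Tgfb1 at 275 TPM through Tgfbr1 at 98.8, Skil at 66.5, Smad2 at 53.9, Tgfbr2 at 49.4, Smad4 at 47.4, Smad7 at 22.5, Tgfbr3 at 22.05 and Smad3 at 14.8 to Eng at 1.67 TPM. Skil, Smad2, Tgfbr2 and Smad4 overlapped from neighbour to neighbour, as did Smad7 with Tgfbr3, and the other neighbours did not. In Cul5 cKO the order was Tgfb1 at 313, Tgfbr1 at 69.0, Skil at 57.5, Tgfbr2 at 42.6, Smad2 at 42.3, Smad4 at 37.2, Smad3 at 23.7, Tgfbr3 at 17.9, Smad7 at 15.9 and Eng at 5.46 TPM. Smad3 stood ninth in WT and seventh in Cul5 cKO, where it overlapped with Tgfbr3, the next in the order. The type I receptor stood above the type II receptor in both genotypes, at 98.8 against 49.4 TPM in WT and 69.0 against 42.6 TPM in Cul5 cKO.

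A ratio of the counts of 2 genes within a sample does not depend on the depth or the scaling of the library. Of the 45 ratios between the 10 genes, 24 did not overlap between the genotypes, 8 of the 9 with Eng and 16 of the 36 without it. Over all 80702160 pairs of tested genes with a count in every sample, 25.9% did not overlap. The ratios share genes with each other and are not independent. The 4 ratios given next were chosen after their values were seen. The two-sided exact permutation p was 0.1 for each, the smallest that 3 samples against 3 allow, and does not account for that choice.

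The count ratio of Tgfbr1 to Skil was 1.44, 1.42 and 1.44 in WT and 1.09, 1.06 and 1.10 in Cul5 cKO. The spread within each genotype was small beside the gap between them, and replicate 1 did not stand apart. The ratio of Tgfbr1 to Smad3 was 9.83, 7.19 and 8.65 in WT and 4.998, 3.58 and 3.42 in Cul5 cKO, without overlap. Smad3 to Smad7 was 0.715, 0.857 and 0.649 in WT and 1.09, 1.56 and 1.93 in Cul5 cKO, so that Smad7 had the more counts in each WT sample and Smad3 in each Cul5 cKO sample. Smad2 to Smad3 was 2.04, 1.25 and 1.68 in WT and 1.17, 0.933 and 0.849 in Cul5 cKO, where WT replicate 2 and Cul5 cKO replicate 1 were near each other. As these ratios are not scaled to length, they are read across samples and not as relative levels of the 2 genes.

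**Figure D4:**
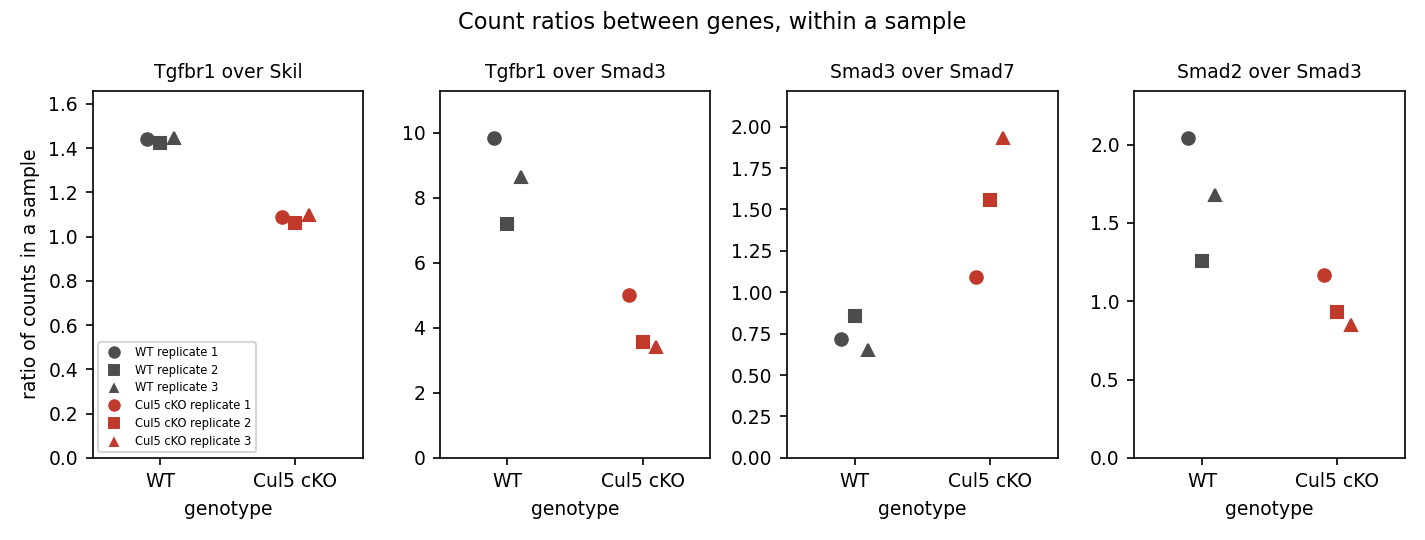
Ratio of the counts of 2 genes within each sample, by genotype, from 0 on each axis, for 4 pairs chosen after their values were seen. The ratio of Tgfbr1 to Skil lies between 1.42 and 1.44 in WT and between 1.06 and 1.10 in Cul5 cKO, and none of the 4 ratios overlaps between the genotypes.

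For the 4 genes with an unadjusted p under 0.05, the genes with the most similar log2 CPM over the 6 samples were found by Pearson's r, as a description over samples that share libraries and depth. With Tgfbr1 these were Wnt10b, Nav2 and Lasp1 (r from 0.994 to 0.997), and with Tgfbr3 they were Cdc42bpg, Zfp523 and Hacl1 (0.994 to 0.996). With Eng they were Naf1, Zfp976 and Runx3 (0.991 to 0.994), and with Smad3 they were Tatdn2, Ckap4 and Mapkapk3 (0.998 to 0.9995). Each was picked as among the highest of the 12925 genes tested, over only 6 samples, so a high r here shows no link between genes.

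The rest of the pathway was read from 6 lists with 77 genes, of which 61 were tested. Il9 rose and none fell, at 1.64% of the tested genes against 1.03% of all genes tested. Those with an unadjusted p under 0.05 were 12 with higher and 3 with lower means, 24.6% of the 61 against 21.3% of all genes tested, where 1415 were higher and 1338 lower. The groups did not overlap for 19 of the 61, or 31.1% against 27.5% of all genes tested. The median log2 fold change over the 61 genes was 0.04.

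Among ligands and latency factors, 0 of 10 tested genes passed the adjusted test and 3 had an unadjusted p under 0.05, all higher in Cul5 cKO. The largest change was in Inhba, which codes for a subunit of activin A, a ligand that also signals through SMAD2 and SMAD3. Inhba was at 0.555, 2.90 and 1.27 CPM in WT and 3.17, 15.5 and 17.7 CPM in Cul5 cKO. All Cul5 cKO samples were above all WT samples, with a wide spread in each group (log2 fold change 2.87 ± 0.784 SE, adjusted p = 0.116, edgeR). In replicates 2 and 3 alone it was 2.73 and passed (adjusted p = 0.0116, edgeR; 0.00144 to 0.440 over its alternatives). Single libraries moved it, to 4.07 without WT replicate 2 and to 2.33 without WT replicate 1.

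Among activin and BMP receptors, 0 of 9 passed and 2 had an unadjusted p under 0.05. Bambi, a pseudoreceptor without a kinase domain that limits TGF-β signalling, was at 1.75, 2.60 and 2.28 CPM in WT and 4.73, 4.56 and 5.60 CPM in Cul5 cKO. The groups were well apart, at a log2 fold change of 1.18 ± 0.235 (SE) that did not pass (adjusted p = 0.0698, edgeR). Like Eng, it was of low abundance, with 9 counts in WT replicate 3. With the deep libraries reduced to that depth its log2 fold change was 0.24 (adjusted p = 0.933, edgeR; 0.0132 to 0.933 over its alternatives).

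Among the other SMADs, corepressors and SMAD partners, 0 of 10 passed, and 1 higher and 2 lower had an unadjusted p under 0.05. Pmepa1, which TGF-β induces and which keeps SMAD2 and SMAD3 from the receptor, was at 159.6, 191 and 165 CPM in WT and at 226, 227 and 234 CPM in Cul5 cKO. These groups did not overlap either (log2 fold change 0.41 ± 0.0794 SE, adjusted p = 0.0671, edgeR), and from replicates 2 and 3 alone it was 0.37 and passed (adjusted p = 0.0460, edgeR).

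Of the 15 ligases, deubiquitinases, phosphatase and adaptors that act on the receptors and SMADs, 0 passed and 2 had an unadjusted p under 0.05. Their log2 fold changes had a median of -0.04. Dab2, an adaptor between the receptors and SMADs, had the largest difference, at 1.67, 0.519 and 0.759 CPM in WT and 2.95, 1.80 and 1.33 CPM in Cul5 cKO, which overlapped (log2 fold change 0.97, adjusted p = 0.325, edgeR). Leaving out WT replicate 1 gave 1.79, and leaving out WT replicate 2 gave 0.59. In the TAK1 branch, which the receptors activate apart from the SMADs, 0 of 5 passed and 1 had an unadjusted p under 0.05. Traf6, the ubiquitin ligase of that branch, was at 463, 473 and 439.6 CPM in WT and 538, 509 and 499 CPM in Cul5 cKO, without overlap (log2 fold change 0.17 ± 0.0587 SE, adjusted p = 0.171, edgeR).

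Of 12 tested genes known to respond to TGF-β, 1 passed and 4 had an unadjusted p under 0.05, all 4 higher in Cul5 cKO. By log2 fold change 9 of the 12 were higher and 3 lower in Cul5 cKO, from -0.59 to 1.41 with a median of 0.33. Among all genes tested 1.03% passed and 21.3% had such a p, and with 12 genes these counts are a description of the list. Il9, the cytokine that defines Th9 cells, was at 355, 308 and 298 CPM in WT and 729, 804 and 1021 CPM in Cul5 cKO, and rose by 1.41 ± 0.134 (SE) on the log2 scale (edgeR, adjusted p = 0.0112). Its call was lost without WT replicate 2 (adjusted p = 0.0771, edgeR) and without WT replicate 3 (0.0816), as well as in 3 limma fits on log values (0.0509 to 0.0832). Its log2 fold change was about as large in these fits, at 1.38 and 1.36 without the 2 samples and 1.41 to 1.43 with limma.

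**Figure D5:**
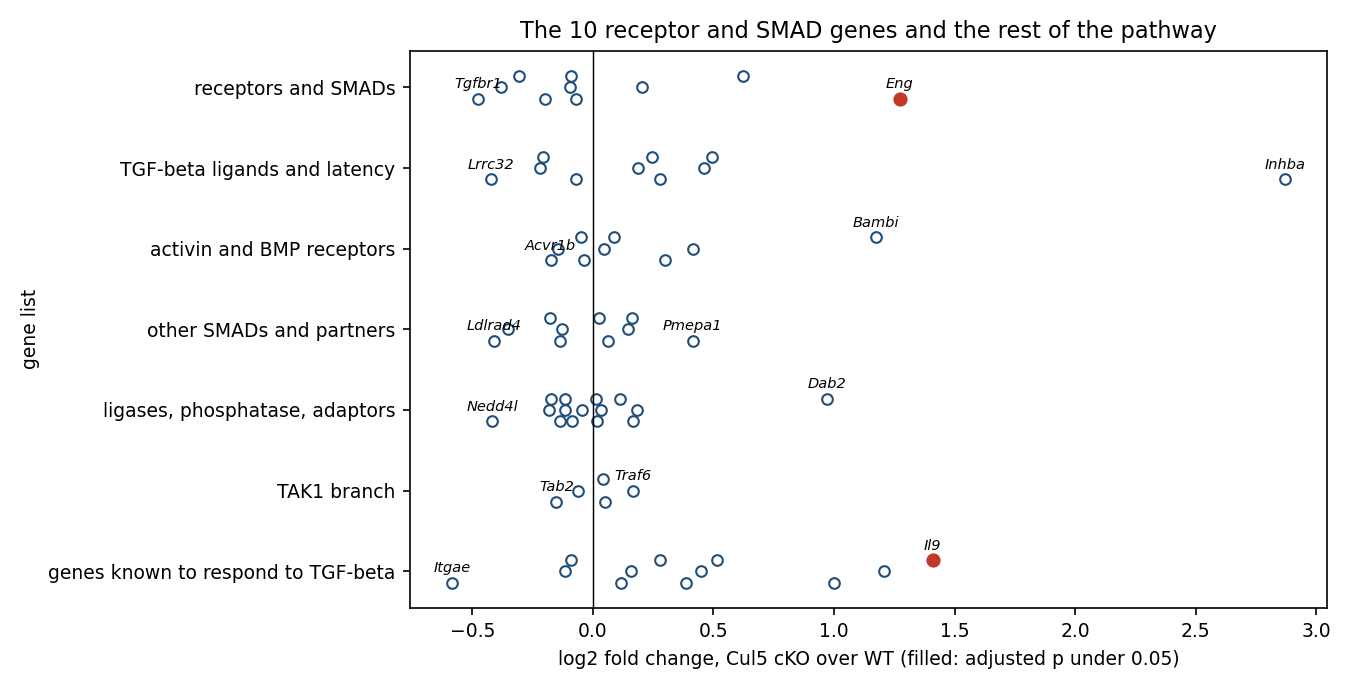
Log2 fold change of Cul5 cKO over WT for the 10 receptor and SMAD genes and for the tested genes of 6 pathway lists, 1 list to a row, with the lowest and the highest gene of each named. Filled points passed an adjusted p under 0.05, which are Eng and Il9.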

How the data were processed

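Poly-A RNA of 6 Th9 cultures was read in single-end reads of 50 bases. The authors ran kallisto (version 0.46.2 in the submitters' processing notes) on the Ensembl transcripts of GRCm38. They deposited unnormalized estimated counts of 119414 transcripts and their TPM, which is scaled to length. They also deposited log2 CPM by gene, normalized by TMM in edgeR 3.34.0. The last table also holds the authors' fold changes and p-values, which were not used.

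Counts of the 97.7% of transcripts in GENCODE vM21 were summed by gene and rounded. In R 4.3.3, edgeR 4.0.16 filtered (12925 genes kept), normalized by TMM and fitted the quasi-likelihood test, Benjamini-Hochberg adjusted. A floor of 3 counts was 0.128 to 0.133 CPM in 5 libraries and 0.759 CPM in WT replicate 3. Transcript shares are of a gene's estimated counts, with shares of its TPM as the alternative. Alternatives used DESeq2 1.42.0 and limma 3.58.1, and also each sample left out. Figures were drawn with matplotlib 3.10.9.

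The 10 genes and all lists were chosen with earlier results of these data known. The genes named are the 10, Cul5, each pathway gene that passed, the gene with the largest absolute log2 fold change in each pathway list (mean CPM 1 or more), the 3 genes most like each gene with an unadjusted p under 0.05, and cell type markers. Fpgs, Gm43422 and single markers were named after their values were seen.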

Additional observations from a re-analysis of the deposited data

How the results depend on the processing

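The genes that passed numbered 133 of all genes tested, 1 of the 10 receptor and SMAD genes and 1 of the pathway lists. These counts became, in that order, 693, 2 and 5 with DESeq2, 1259, 2 and 6 with voom quality weights, 848, 3 and 9 with the replicate block, 1688, 4 and 13 with replicate 1 against replicates 2 and 3 as a term, and 1153, 5 and 8 in replicates 2 and 3 alone. They became 60 and 0 with counts scaled from TPM (pathway lists within 1.5 times), 18 and 0 with thinned libraries (likewise), 4, 0 and 0 with limma on the deposited log2 CPM, 17, 0 and 0 on log2(TPM + 1), and 1, 0 and 0 on log2(TPM + 0.1). With no filter beyond 1 count, 228 genes and 2 pathway genes passed. Library size alone gave 72 higher and 77 lower calls against 79 and 54. Leaving out 1 sample gave 2 to 316 genes (316 without WT replicate 1, 2 without WT replicate 2 or 3, 45 and 3 without Cul5 cKO replicates 2 and 3), 0 to 2 of the 10 genes and 0 to 4 pathway genes. The cause of these shifts was not tested. Correlations of the deviations of same-numbered samples were 0.37, 0.206 and 0.025, and those of differently numbered samples ran from -0.333 to 0.201. Whether the numbers pair the samples was not tested.

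The direction turned for Smad4 in thinned libraries (log2 fold change 0.0822) and for Skil without WT replicate 2 (0.0414, with -0.187 to 0.0414 over the samples left out). It held for the other 8 genes in all 20 alternatives.

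With 13 counts of Eng in WT replicate 3, depth limits the low genes.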
